A study of Mus musculus with 8 samples.

Results

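The hypoxia-inducible genes described here are the 10 genes of the series whose gene name is Hif1a, Epas1, Egln1, Egln2, Egln3, Bnip3, Adm, Ndrg1, P4ha1 or Ankrd37, out of 55157 genes in the deposited table. They were picked by name as the HIF alpha subunits, the enzymes that hydroxylate them and known HIF target genes outside glycolysis. The rule uses names alone, but the set was drawn up with earlier results of these data known, so the counts over it are descriptions. All 10 were found once in the table, and 7 of them reached the mean of 1 FPKM over the 8 libraries that was required for a test. FPKM scales fragment counts by exon length and by library size, so levels can be compared between genes and, with a limit, between libraries. The FPKM of all genes summed to 278096 to 284603 in melatonin and 287731 to 302290 in control libraries, so the totals differed between the groups. Scaling factors from the median ratio of each gene to its mean over libraries lay between 0.994 and 1.01. Small differences between the groups depend on which scaling is used. Epas1 is an exception between genes: its FPKM values did not give whole fragments with its GENCODE exon length, so the length behind them may be another and its level against other genes is uncertain by a constant factor.

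The RNA came from type 7 to 8 follicles, which were isolated from ovaries of Kunming mice, an outbred stock, at postnatal day 21. All mice had received pregnant mare serum gonadotropin (PMSG, a hormone with activity like that of follicle-stimulating hormone) 24 hours earlier. Melatonin was injected with PMSG in the 4 melatonin samples, and normal saline was injected with PMSG in the 4 control samples. The sources used here give neither the melatonin dose nor whether a sample held follicles of 1 animal or of several. The p-values therefore speak of the spread among these libraries, part of which may be technical. With all mice given PMSG, the comparison concerns melatonin added to gonadotropin and not the gonadotropin itself.

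Cells read oxygen through the HIF transcription factors. Where oxygen is ample, the EGLN (PHD) dioxygenases hydroxylate prolines of the HIF alpha subunits HIF1A and EPAS1 (HIF2A), the VHL ubiquitin ligase binds the hydroxylated protein and the proteasome removes it. Where oxygen is scarce, the alpha subunit persists, pairs with ARNT and binds hypoxia response elements in DNA, whose core is ACGTG or GCGTG. Because this control acts on protein, the messenger level of Hif1a or Epas1 does not report HIF activity, whereas target genes such as Bnip3, Ankrd37 and Egln3 are transcribed in response to it. The granulosa layer of an ovarian follicle has no blood vessels of its own, and gonadotropins are known to act on HIF1A in granulosa cells.

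Implied depth, recovered from the FPKM values and exon lengths, was 18553188 to 23649204 fragments assigned to genes in melatonin libraries and 17451111 to 22034312 in control libraries. Granulosa markers were highly expressed: Inha, which encodes the inhibin alpha subunit, stood at 5445 ± 309 FPKM in melatonin and 6597 ± 641 FPKM in control samples (SD, n = 4 each), and the oocyte gene Gdf9 stood at 97.9 ± 14.3 FPKM in melatonin and 107 ± 19.1 FPKM in control samples. Endothelial markers were scarce. Their summed level over 10 genes was 8.24 to 13.5 FPKM in melatonin and 10.5 to 15.6 FPKM in control libraries, with 0 of the 10 at zero throughout. Control replicate 3 stood apart in its GC trend and its red blood cell markers. Across genes, which are not independent replicates, its deviation from the mean over libraries had a Spearman correlation of 0.26 with GC content, against -0.02 to 0.15 in the other control libraries and -0.18 to -0.12 in melatonin libraries. Its red blood cell markers summed to 1545 FPKM, against 125 to 479 FPKM in melatonin libraries and 66.5 to 891 FPKM in the other control libraries. For 5 of the 10 hypoxia-inducible genes it held the highest control value, and melatonin replicate 3 likewise held the highest melatonin value for 5. The GC trend also split the groups, with all 4 melatonin libraries below all 4 control libraries. Correlation with exon length split them too, at 0.02 to 0.11 in melatonin and -0.11 to -0.05 in control libraries. Fits with both trends removed are among the settings given below.

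Promoter sequence, shown here because the members are defined by their place in the HIF response, was held by RefSeq (GRCm38.p6) for 8 of the 10 genes in 9 windows of 300 bases, from 250 before to 50 after each start. Each of the 9 windows held at least 1 core ACGTG or GCGTG on either strand. Of all 32851 RefSeq windows, 43.8% held at least 1, and of the windows of genes tested here 62.1% did. Egln2 had the most, with 6 cores in 1 of its 2 windows and 1 in the other, and 0.69% of all windows held at least 6. Bnip3 had 5 cores, and 1.66% of all windows held at least as many. These 2 shares are over all windows, where the median was 0 cores. In windows of tested genes the median was 1, so the shares may be higher there. ACGTG read on both strands of CACGTG counts as 2 overlapping cores, as happened once in Bnip3, in Hif1a and in Egln2. A match describes the letters and is not evidence of binding. The stretches below are those of the 4 members whose melatonin values all lay below the control values, a separation that 5.94% of all tested genes showed in this direction and 5.79% in the opposite one. Of these 4, Ankrd37 was itself below the level required for a test. They run 5′ to 3′ on the strand of the gene, end before the RefSeq start and leave out bases that GENCODE annotates as exon. Capitals mark the cores, which read CACGT or CACGC where the core is on the opposite strand.
Bnip3, chr7:138909520-138909756, minus strand: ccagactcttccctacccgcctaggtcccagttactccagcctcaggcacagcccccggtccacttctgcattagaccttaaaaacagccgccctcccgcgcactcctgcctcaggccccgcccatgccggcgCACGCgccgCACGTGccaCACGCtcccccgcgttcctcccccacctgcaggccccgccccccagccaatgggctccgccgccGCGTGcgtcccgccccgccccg
Ankrd37, chr8:45999868-46000100, minus strand: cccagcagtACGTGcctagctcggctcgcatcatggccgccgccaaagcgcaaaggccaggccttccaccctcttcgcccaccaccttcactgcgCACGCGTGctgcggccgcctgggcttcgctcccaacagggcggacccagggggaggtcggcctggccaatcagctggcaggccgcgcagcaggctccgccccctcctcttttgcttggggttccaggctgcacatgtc
P4ha1, chr10:59323046-59323295, plus strand: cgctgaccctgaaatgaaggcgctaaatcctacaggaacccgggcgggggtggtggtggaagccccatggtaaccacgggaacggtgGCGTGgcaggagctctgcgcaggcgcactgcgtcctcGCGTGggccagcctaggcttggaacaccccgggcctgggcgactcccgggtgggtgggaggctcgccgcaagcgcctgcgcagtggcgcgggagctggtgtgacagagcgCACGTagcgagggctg
Egln1, chr8:124949325-124949504, minus strand: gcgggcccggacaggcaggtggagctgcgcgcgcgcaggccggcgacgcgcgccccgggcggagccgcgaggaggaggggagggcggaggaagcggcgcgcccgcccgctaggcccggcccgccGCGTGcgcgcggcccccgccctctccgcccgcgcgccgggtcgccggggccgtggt
The Bnip3 stretch carries 5 cores, 4 of them between positions -117 and -95 from the start, and the Ankrd37 stretch carries 3, with a pair on opposite strands that overlap as CACGCGTG. The P4ha1 stretch carries 3 and the Egln1 stretch 1, with the other Egln1 core at -68 to -64 falling in the part left out.

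**Figure D1:**
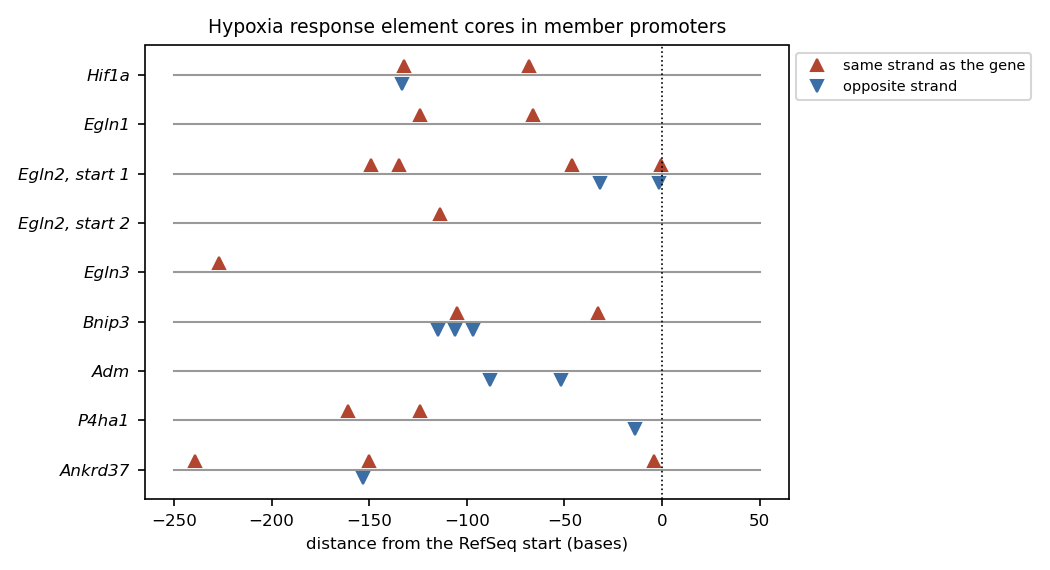
Position of each hypoxia response element core (ACGTG or GCGTG) in the RefSeq promoter windows of 8 members, in bases from the start site (dotted line), with upward triangles for the strand of the gene and downward triangles for the opposite strand. Bnip3 shows a cluster of 4 cores between -117 and -95, and every window holds at least 1.

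The HIF alpha subunit genes Hif1a and Epas1 were both abundant and both lower on average with melatonin, without passing the test. Hif1a (chromosome 12, 73901375 to 73947530 on mm10), the oxygen-regulated subunit found in most cell types, had 24.1, 26.5, 30.2 and 27.1 FPKM in melatonin replicates 1 to 4, against 40.8, 31.0, 37.8 and 26.8 FPKM in control replicates 1 to 4. Control replicates 1 and 3 were well above all others, and control replicate 4 lay inside the melatonin range. The means were 27.0 ± 2.49 FPKM in melatonin and 34.1 ± 6.36 FPKM in control samples (SD, n = 4 each), a log2 fold change of -0.31 ± 0.13 (SE; limma adjusted p = 0.239) on log2(FPKM + 1). An antisense gene, Gm15283, shares 330 of the 5896 exon bases of Hif1a, and reads from the 2 strands may not have been separated, as no source used here states whether counting used strand. In bulk follicles such as these, fewer cells of a type and less RNA per cell cannot be told apart.

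Epas1 (chromosome 17, 86753700 to 86833410), which encodes HIF2A, had 21.8, 19.4, 26.7 and 39.0 FPKM in melatonin replicates 1 to 4, against 34.8, 39.4, 38.9 and 33.7 FPKM in control replicates 1 to 4. Melatonin replicate 4 was at the level of the controls, and the other 3 melatonin values lay below all 4 control values. The log2 fold change was -0.49 ± 0.19 (SE; limma adjusted p = 0.221), and -0.68 without melatonin replicate 4 (limma adjusted p = 0.179). Epas1 had the largest coefficient of variation among the tested members in the melatonin group, 32.7%, and 7.90% in the control group. Melatonin replicate 4 was also at the control level for the theca gene Cyp17a1, whose enzyme makes androgens. It had 4.10, 3.26, 7.54 and 20.4 FPKM in melatonin replicates 1 to 4, against 23.2, 20.4, 15.4 and 20.2 FPKM in control replicates 1 to 4. Cyp11a1, which starts steroid synthesis from cholesterol, likewise had 17.5 FPKM in melatonin replicate 4 and 7.44 to 8.25 FPKM in the other melatonin libraries. Over the list, 6 of 7 tested theca markers had a negative log2 fold change, and the summed level of its 8 genes was 607 to 1171 FPKM in melatonin and 974 to 1319 FPKM in control libraries, with 0 of the 8 at zero throughout. That sum did not single out melatonin replicate 4, at 925 FPKM. Most of the sum came from a single gene, however. Hsd3b1 had 757, 574, 1138 and 865 FPKM in melatonin replicates 1 to 4, so the sum says little about the other theca markers. Cyp17a1 and Cyp11a1 were the theca markers with the smallest p, and the others did not share one pattern. Insl3 had 2.38, 2.91, 0.346 and 0.905 FPKM in melatonin replicates 1 to 4, and Star had 2.50 to 2.64 FPKM. Tcf21 had its highest melatonin value, 3.28 FPKM, in replicate 4, and Ptch1 had a positive log2 fold change of 0.18. Of the endothelial markers 5 of 5 tested had a negative log2 fold change, and Cdh5, a junction gene of that cell type, had 2.62 ± 0.54 FPKM in melatonin and 3.69 ± 0.72 FPKM in control samples (limma adjusted p = 0.217). The part of theca cells or of endothelial cells, which also express Epas1, in its difference was not tested.

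The ratio of Epas1 to Hif1a within a library showed no difference between the groups beyond their spread. On the log2 scale of FPKM + 1 it was -0.06 ± 0.40 in melatonin and 0.12 ± 0.26 in control samples (SD, n = 4 each; two-sided exact permutation p = 0.486, adjusted over 4 ratios p = 0.486). Epas1 exceeded Hif1a in 1 of 4 melatonin and 3 of 4 control libraries, an order that rests on the uncertain Epas1 length. HIF3A, the third alpha subunit, was near the detection limit, with Hif3a at 0.141 ± 0.080 FPKM in melatonin and 0.133 ± 0.075 FPKM in control samples.

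Among the HIF prolyl hydroxylases, Egln2 was the most abundant, Egln1 followed and Egln3 was close to absent in both groups. Egln1 (chromosome 8, 124908587 to 124949324), the main oxygen-dependent hydroxylase in most cells and itself a HIF target, had 10.04, 10.9, 11.1 and 10.7 FPKM in melatonin replicates 1 to 4, against 12.6, 12.0, 13.1 and 11.5 FPKM in control replicates 1 to 4. All 4 melatonin values lay below all 4 control values, with melatonin replicate 3 and control replicate 4 the closest pair. The log2 fold change was -0.19 ± 0.05 (SE; limma adjusted p = 0.150). Egln2 (chromosome 7, 27158658 to 27166802), a hydroxylase that hypoxia is not known to induce, had 17.9, 18.8, 17.9 and 17.5 FPKM in melatonin replicates 1 to 4, against 17.8, 18.9, 19.8 and 18.1 FPKM in control replicates 1 to 4. The ranges overlapped, although control replicates 2 and 3 lay above every melatonin value. The log2 fold change was -0.05 ± 0.05 (SE; 95% interval -0.16 to 0.06; limma adjusted p = 0.625), and 0.040 once GC content and length trends were removed.

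The balance between these hydroxylase genes was compared within each library. The log2 ratio of Egln2 to Egln1 on FPKM + 1 was 0.78, 0.74, 0.64 and 0.67 in melatonin replicates 1 to 4, against 0.47, 0.61, 0.56 and 0.61 in control replicates 1 to 4. Every melatonin ratio exceeded every control ratio, with a mean difference of 0.14. With 4 libraries a group, the two-sided exact permutation p cannot be smaller than the 0.0286 found here. It was 0.114 once adjusted over the 4 ratios, so the ratio did not pass. A ratio that alone reaches the smallest p cannot pass that adjustment, whatever its size, so the test could not decide here. Egln3, a hydroxylase that hypoxia induces strongly in many cells, rested on 7, 10, 5 and 9 fragments in melatonin replicates 1 to 4 and on 15, 4, 14 and 18 in control replicates 1 to 4. Summed over the libraries this was 0.365 CPM (fragments of the gene scaled to the total assigned in the library) in melatonin (exact Poisson 95% interval 0.248 to 0.518) and 0.626 in control (0.466 to 0.822). The intervals overlap, cover counting error only, and control replicate 2 held the fewest fragments of all 8 libraries. Egln3 was under the filter and was not tested.

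**Figure D2:**
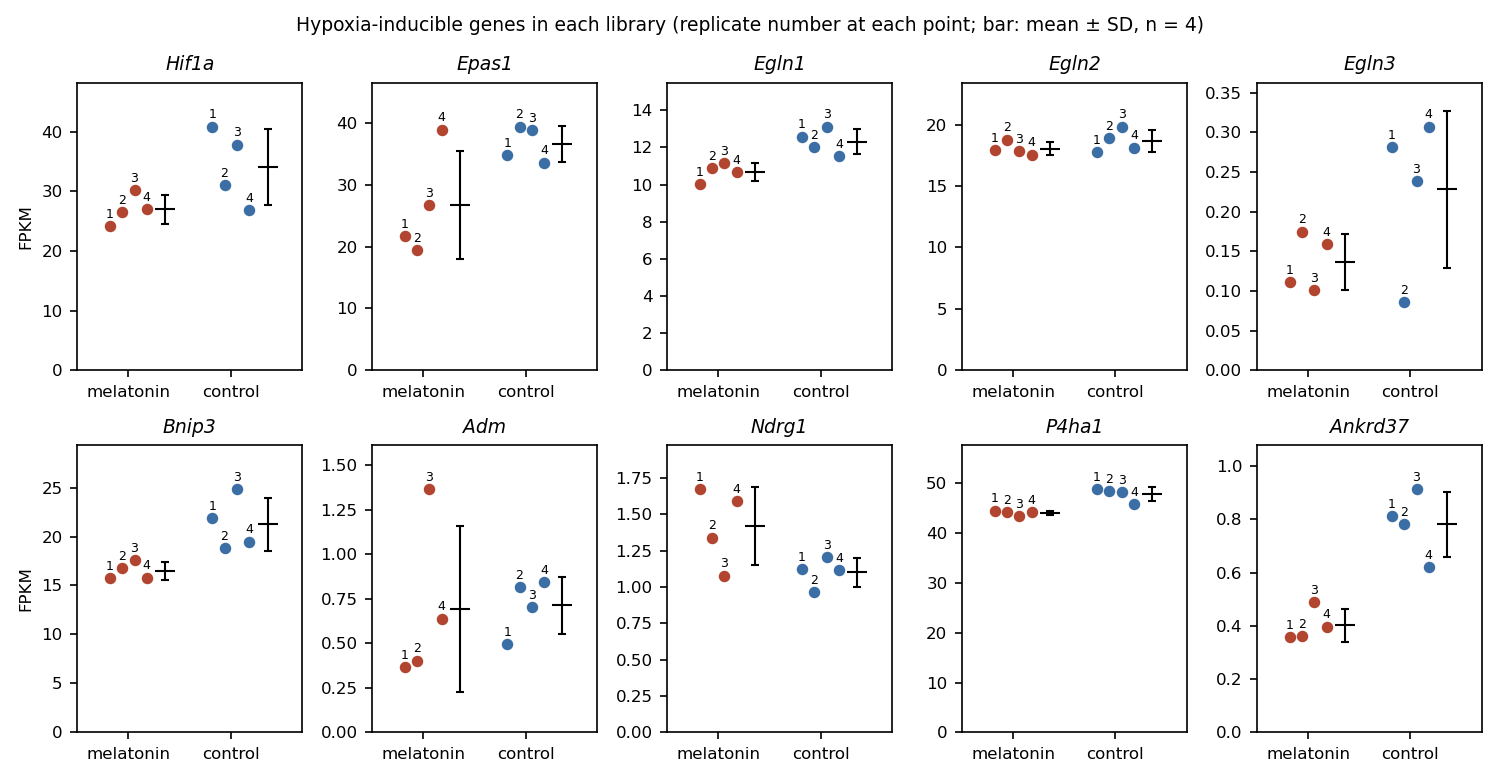
FPKM of each of the 10 members in each library, with melatonin left of control, the replicate number at each point, and the mean ± SD of 4 libraries as a bar; every axis starts at 0. Egln1, Bnip3, P4ha1 and Ankrd37 show 4 melatonin points below the 4 control points, while Epas1 has melatonin replicate 4 at the control level and Adm has melatonin replicate 3 above all others.

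Of the target genes, Bnip3 was the member with the smallest p. Bnip3 (chromosome 7, 138890836 to 138909519) encodes a mitochondrial outer membrane protein that recruits mitochondria to autophagosomes under hypoxia. It had 15.7, 16.8, 17.6 and 15.8 FPKM in melatonin replicates 1 to 4, against 21.9, 18.8, 24.8 and 19.5 FPKM in control replicates 1 to 4. The groups did not overlap, and the control values were the more spread out. The means were 16.5 ± 0.89 FPKM in melatonin and 21.3 ± 2.73 FPKM in control samples (SD, n = 4 each), with a log2 fold change of -0.34 ± 0.09 (SE; limma adjusted p = 0.142, unadjusted p = 0.00372). Without control replicate 3, the highest library, the log2 fold change was -0.27 (limma adjusted p = 0.240). An antisense gene, Gm45507, covers 22.3% of the Bnip3 exons but was listed at 0 in all libraries.

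Bnip3l (NIX), the closest paralog of Bnip3 and likewise a mitophagy receptor, showed no such gap. It had 30.8 ± 1.53 FPKM in melatonin and 31.3 ± 1.85 FPKM in control samples (limma adjusted p = 0.858). The log2 ratio of Bnip3 to Bnip3l on FPKM + 1 was -0.86 ± 0.12 in melatonin and -0.54 ± 0.24 in control samples (SD, n = 4 each; two-sided exact permutation p = 0.0857, adjusted over the 4 ratios p = 0.171). Melatonin replicate 3, at -0.69, lay among the control values, which ran from -0.76 to -0.22. Of the 11 tested genes in the list of mitophagy partners, which includes Bnip3l, 0 passed the adjusted threshold and the median log2 fold change was -0.02. The autophagosome protein gene Map1lc3a had the smallest p of that list, with 33.5 ± 3.85 FPKM in melatonin and 38.6 ± 1.65 FPKM in control samples (limma adjusted p = 0.218). Bcl2l1, whose product BNIP3 can bind, had 6.57 ± 1.12 FPKM in melatonin and 8.52 ± 1.69 FPKM in control samples (limma adjusted p = 0.261).

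Bnip3 and Egln2 exchanged places in the order of levels. Bnip3 exceeded Egln2 in 0 of 4 melatonin and 3 of 4 control libraries. In all 8 libraries P4ha1 stood above Hif1a and Epas1, and Bnip3 and Egln2 stood above Egln1. Ndrg1 stood above Ankrd37 in all 8 libraries, and above Adm in 3 of 4 melatonin and 4 of 4 control libraries. Egln3 was below Egln1 and Adm in every library. Neighbours such as Hif1a and Epas1, or Ankrd37 and Adm in the control group, did not keep an order across libraries.

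**Figure D3:**
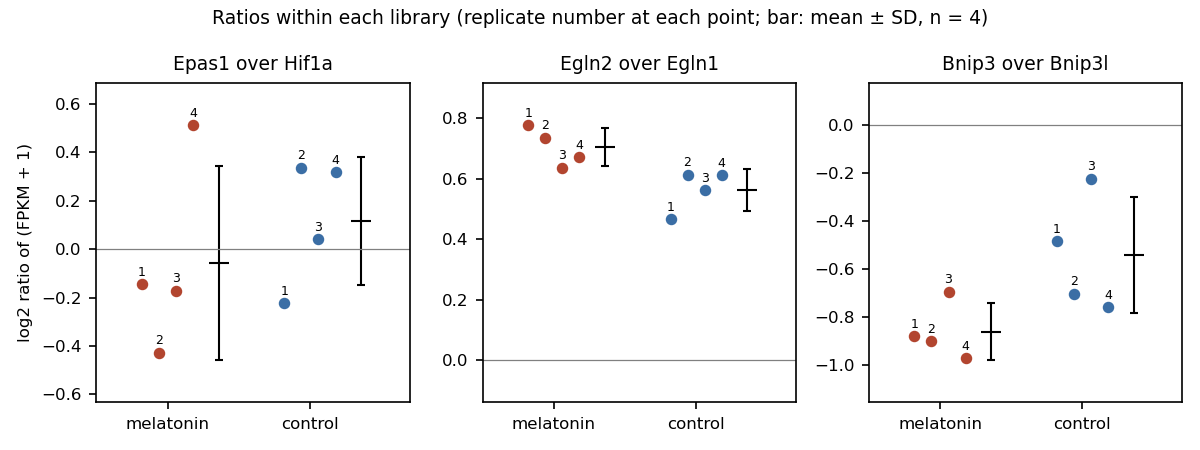
Log2 ratios of FPKM + 1 within each library for Epas1 over Hif1a, Egln2 over Egln1 and Bnip3 over Bnip3l, melatonin left of control, with the replicate number at each point and mean ± SD of 4 libraries. The groups separate for Egln2 over Egln1, from 0.64 to 0.78 in melatonin and from 0.47 to 0.61 in control libraries, and overlap for the other ratios.

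P4ha1 (chromosome 10, 59323296 to 59373304) was the most abundant member. It encodes the catalytic subunit of collagen prolyl 4-hydroxylase, which stabilizes the collagen triple helix in the endoplasmic reticulum and is unrelated in substrate to the EGLN enzymes. Its values were 44.4, 44.1, 43.3 and 44.1 FPKM in melatonin replicates 1 to 4, against 48.8, 48.4, 48.2 and 45.8 FPKM in control replicates 1 to 4. The spread within groups was the smallest of all members, with a coefficient of variation of 1.09% in melatonin and 2.82% in control samples, and the groups did not overlap. The difference was small, a log2 fold change of -0.12 ± 0.04 (SE; limma adjusted p = 0.179), and was -0.04 after quantile normalization (limma adjusted p = 0.639).

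Other subunits of the collagen hydroxylase did not share one direction. The beta subunit gene P4hb, which also serves as protein disulfide isomerase, had 374 ± 17.3 FPKM in melatonin and 402 ± 27.9 FPKM in control samples (limma adjusted p = 0.434). P4ha2, an alternative catalytic subunit and a HIF target, had 2.85 ± 0.36 FPKM in melatonin and 3.42 ± 1.20 FPKM in control samples (limma adjusted p = 0.633), with 5.06 FPKM in control replicate 3. P4ha3, a further catalytic subunit, had 4.21, 3.41, 2.80 and 2.95 FPKM in melatonin replicates 1 to 4, against 2.79, 2.60, 2.59 and 2.53 FPKM in control replicates 1 to 4. Its melatonin values all lay above the control values, narrowly so for replicate 3 (limma adjusted p = 0.241).

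Ankrd37 and Adm were transcribed at low levels. Ankrd37 (chromosome 8, 45996902 to 46005707), a small ankyrin repeat protein gene that is a direct HIF1A target, rested on 13, 12, 14 and 13 fragments in melatonin replicates 1 to 4 and on 25, 21, 31 and 21 in control replicates 1 to 4. No melatonin library reached the lowest control library, in fragments or in FPKM. Summed over libraries the level was 0.612 CPM in melatonin (exact Poisson 95% interval 0.457 to 0.802) and 1.20 in control (0.976 to 1.46), a ratio of 0.509. In FPKM the means were 0.402 ± 0.062 in melatonin and 0.782 ± 0.122 in control samples (SD, n = 4 each). It lay under the filter. A fit of recovered fragments without a filter, added after the data were seen, gave a log2 fold change of -0.94 (limma-voom adjusted p = 0.218), and on log2(FPKM + 1) it was -0.34. Exons of Ufsp2 and Lrp2bp on the opposite strand cover 3.70% and 22.7% of the Ankrd37 exons, and Ufsp2, at a mean of 8.31 FPKM, is the more abundant gene.

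Adm encodes adrenomedullin, a vasodilator peptide induced by hypoxia. It rested on 14, 14, 41 and 22 fragments in melatonin replicates 1 to 4 and on 16, 23, 25 and 30 in control replicates 1 to 4. Melatonin replicate 3 held the highest value and melatonin replicates 1 and 2 the lowest, so the groups overlapped, and the summed levels of 1.07 CPM in melatonin and 1.15 in control differed by less than their counting intervals. In its receptor system, Calcrl, the receptor itself, was also below the filter, at 1.01 ± 0.16 FPKM in melatonin and 0.668 ± 0.103 FPKM in control samples, with all melatonin values above the control values. Its partner Ramp2 had 1.07 ± 0.17 FPKM in melatonin and 1.35 ± 0.34 FPKM in control samples (limma adjusted p = 0.476).

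Ndrg1 (chromosome 15, 66929318 to 66969640), a stress-responsive gene that HIF1A and other factors induce, was the tested member with a positive difference. It had 1.67, 1.34, 1.08 and 1.59 FPKM in melatonin replicates 1 to 4, against 1.12, 0.96, 1.20 and 1.12 FPKM in control replicates 1 to 4. Melatonin replicate 3 lay within the control range and the other 3 melatonin values were above it. The log2 fold change was 0.20 ± 0.11 (SE; limma adjusted p = 0.353). At such low FPKM the added 1 shrinks the value, which was 0.36 by limma-voom on recovered fragments (adjusted p = 0.239). Its relatives Ndrg2 and Ndrg3 had negative log2 fold changes, with Ndrg2 at 20.1 ± 4.95 FPKM in melatonin and 24.9 ± 2.22 FPKM in control samples (limma adjusted p = 0.292).

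Over the 7 tested members, 6 had a negative log2 fold change, 1 a positive one, and the median was -0.19, beside -0.01 over all 14738 tested genes, of which 52.5% were negative. None of the 7 passed the adjusted threshold of 0.05 by limma, where 0% of all tested genes passed and 2821 had an unadjusted p under 0.05. By limma-voom on recovered fragments 0 genes passed likewise, with 2738 at an unadjusted p under 0.05. At an unadjusted p under 0.05, 5 of the 7 were lower (Hif1a, Epas1, Egln1, Bnip3 and P4ha1) and 0 higher, where 9.74% of all tested genes were lower and 9.4% higher. That count was 3 without control replicate 3 and 3 without melatonin replicate 1 or melatonin replicate 2. In 3 of the 7 (Egln1, Bnip3 and P4ha1) the melatonin values all lay below the control values, where 5.94% of all tested genes did so. After quantile normalization the count of members without overlap was 2.

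Markers of the cell types a follicle sample can hold were mostly negative as well, with a median shift larger than that of the members in several lists and smaller in others. Of the granulosa markers 7 of 8 tested were negative, with a median log2 fold change of -0.27, and their summed level was 6585 to 7296 FPKM in melatonin and 7669 to 9418 FPKM in control libraries, without overlap. Stroma markers were negative in 6 of 6 (median -0.33) and leukocyte markers in 7 of 7 (median -0.37), with sums that overlapped between the groups. Oocyte markers were negative in 8 of 10 (median -0.12), and endothelial markers in 5 of 5 (median -0.09). Smooth muscle and pericyte markers were mixed, with 3 negative and 2 positive of 5 tested (median -0.09). In each of these lists 0 genes passed the adjusted threshold, and no gene was at zero throughout. The part of cell makeup in the values of the hypoxia-inducible genes was not tested.

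**Figure D4:**
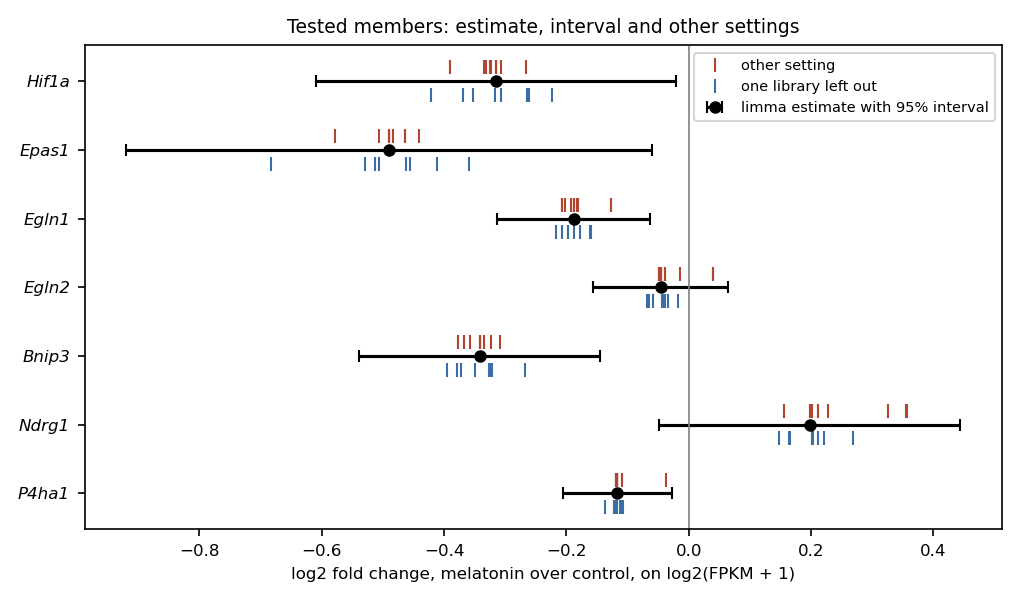
Log2 fold change of melatonin over control on log2(FPKM + 1) for the 7 tested members, with the limma 95% interval (unadjusted), values under other settings (red ticks above) and with 1 library left out (blue ticks below). Estimates run from -0.49 for Epas1 to 0.20 for Ndrg1, and Egln2 is the member with ticks on both sides of 0.

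Beyond the 10 members, the wider HIF pathway was mixed. Of 36 tested HIF targets outside glycolysis, chosen with earlier results of these data known, 23 were negative and 13 positive, with a median log2 fold change of -0.03 and 0 past the adjusted threshold. At an unadjusted p under 0.05, 3 were lower and 3 higher, where 9.74% of all tested genes were lower and 9.4% higher. Plod1, a collagen lysyl hydroxylase, was the one with the smallest p, at 29.7 ± 2.66 FPKM in melatonin and 36.4 ± 1.88 FPKM in control samples (limma adjusted p = 0.128). Kdm4c, a histone demethylase, had 4.99 ± 0.10 FPKM in melatonin and 4.12 ± 0.30 FPKM in control samples (limma adjusted p = 0.146), with no overlap. The angiogenic factor gene Vegfa had 20.6, 21.6, 27.3 and 20.1 FPKM in melatonin replicates 1 to 4, against 28.2, 24.1, 48.6 and 23.3 FPKM in control replicates 1 to 4. Ddit4, an inhibitor of mTORC1 signalling induced by hypoxia, had 36.5 ± 9.51 FPKM in melatonin and 43.0 ± 23.6 FPKM in control samples. Control replicate 3 held the highest value of all 8 libraries for both, 48.6 FPKM for Vegfa and 78.2 FPKM for Ddit4. It did so too for the members Bnip3, Ankrd37, Egln1 and Egln2, the last of which hypoxia is not known to induce.

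Partners and regulators of HIF were present at moderate levels. Arnt, the shared beta subunit, had 12.9 ± 0.27 FPKM in melatonin and 12.1 ± 0.57 FPKM in control samples (limma adjusted p = 0.313), with all melatonin values above the control values. Its paralog Arnt2 had 19.6, 18.9, 19.6 and 15.6 FPKM in melatonin replicates 1 to 4, against 12.2, 12.9, 9.44 and 17.4 FPKM in control replicates 1 to 4 (limma adjusted p = 0.169). Control replicate 3 was the lowest and melatonin replicate 4 lay within the control range. Among the 10 tested subunits, partners and cofactors, 3 were negative and 7 positive. Vhl, the substrate receptor for hydroxylated HIF, had 7.96 ± 0.34 FPKM in melatonin and 8.43 ± 0.54 FPKM in control samples, and Hif1an, the asparaginyl hydroxylase that limits HIF transactivation, had 12.4 ± 0.47 FPKM in melatonin and 12.0 ± 0.75 FPKM in control samples. Of the 17 tested genes of oxygen sensing and degradation 11 were negative, led by the chaperone gene Hsp90ab1 with 634 ± 22.4 FPKM in melatonin and 723 ± 21.2 FPKM in control samples (limma adjusted p = 0.169). Rbx1, the RING subunit of the VHL ligase, had 13.8 ± 0.86 FPKM in melatonin and 15.5 ± 0.63 FPKM in control samples (limma adjusted p = 0.209).

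HIF targets in glycolysis and glucose uptake, also listed with earlier results known, leaned further in one direction, with 17 of 18 tested genes negative. The median log2 fold change was -0.35, and again 0 passed the adjusted threshold. At an unadjusted p under 0.05, 11 were lower and 1 higher, where 9.74% of all tested genes were lower and 9.4% higher. Pgk1, phosphoglycerate kinase, had 62.9 ± 5.59 FPKM in melatonin and 79.9 ± 3.36 FPKM in control samples (limma adjusted p = 0.120), and Eno1, enolase, had 44.3 ± 6.28 FPKM in melatonin and 60.0 ± 4.37 FPKM in control samples (limma adjusted p = 0.122). Ldha, lactate dehydrogenase A, had 90.6 ± 9.78 FPKM in melatonin and 122 ± 17.2 FPKM in control samples (limma adjusted p = 0.146). The glucose transporter gene Slc2a1 had 10.3 ± 0.90 FPKM in melatonin and 11.6 ± 1.27 FPKM in control samples. Of the handling-sensitive immediate-early and heat-shock genes, 0 of 13 passed the adjusted threshold. By unadjusted p under 0.05, 6 were lower and 0 higher, beside the same 9.74% and 9.4% of all tested genes. All 13 had a negative log2 fold change, with a median of -0.68. Their summed level overlapped between the groups and was 481 to 874 FPKM in melatonin and 827 to 1150 FPKM in control libraries. Btg2, an antiproliferative early-response gene, had 28.5 ± 3.46 FPKM in melatonin and 45.0 ± 5.44 FPKM in control samples (limma adjusted p = 0.120). The part of handling in the values of the hypoxia-inducible genes was not tested.

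**Figure D5:**
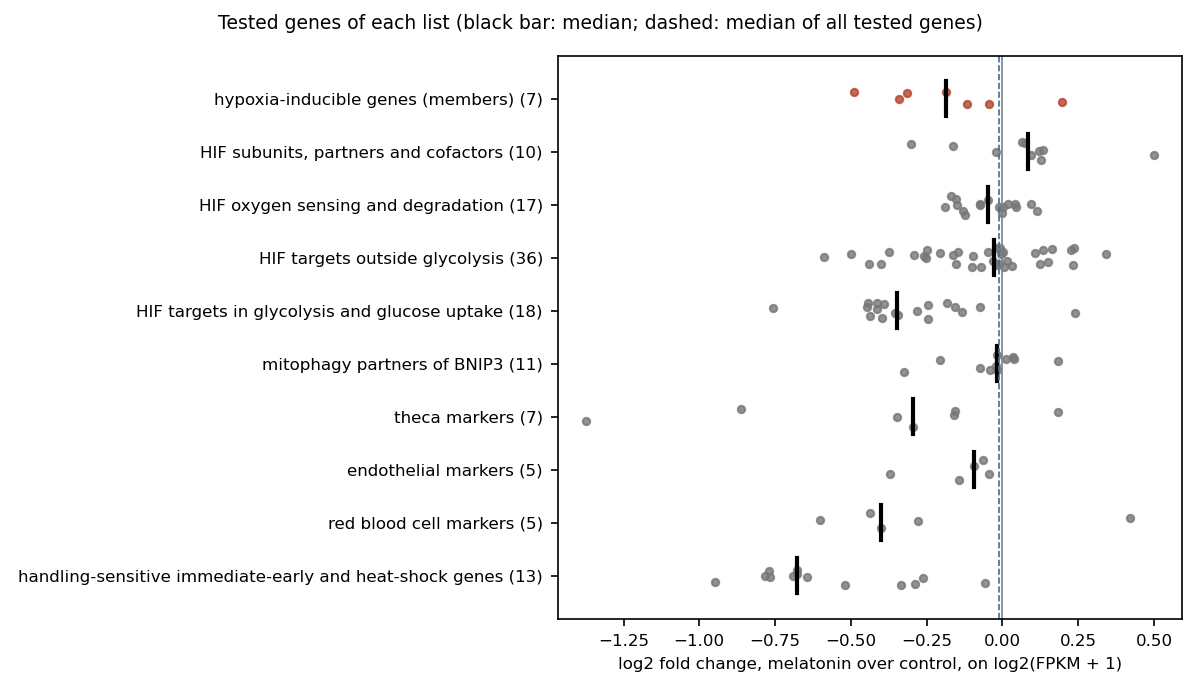
Log2 fold change of melatonin over control on log2(FPKM + 1) for each tested gene of the members and of 9 related lists, with the number tested in brackets, the median of each list as a black bar and the median of all tested genes as a dashed line. Medians run from -0.68 for the handling-sensitive genes to 0.09 for HIF subunits, partners and cofactors, with the members at -0.19.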

How the data were processed

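The authors deposited FPKM values per gene, per the file headers. Per the submitters' processing notes, HISAT2 2.0.5 and mm10 were used; neither the counting tool nor the annotation is given in the sources used here. Libraries were made with a NEBNext Ultra kit, per the labels' protocols. The series table and the 8 sample files differed in 0 values.

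The members and gene lists were chosen with earlier results of these data known. A mean of 1 FPKM or more over the libraries was required (14738 genes). These were compared on log2(FPKM + 1), which understates changes of low genes, by limma's moderated test with trend (limma 3.58.1 under R 4.3.3). Group was the single term, and p-values were adjusted by Benjamini-Hochberg over all tested genes, with a threshold of 0.05. By rule the text could name the members, the 2 genes with the smallest p in every list, and set partners of the members; those that bear on a member are given. Inha and Gdf9 were added to check the tissue. Ratios were compared by two-sided exact permutation over 70 assignments.

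With exon lengths from GENCODE M21 (54495 of 55157 identifiers matched), 98.8% of low values (up to 30 fragments) were whole numbers of fragments within 0.05. Whole fragments were recovered for 13760 tested genes and for 9 of the 10 members, Epas1 excepted. Intervals on fragments cover counting error only. Tables and plots were made in Python 3.11.15 with pandas 2.3.3, scipy 1.17.1 and matplotlib 3.10.9.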

Additional observations from a re-analysis of the deposited data

Results flagged for a closer look

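Within each group of 4, the highest and the lowest value of each member and of each ratio were checked against Dixon's 95% critical value of 0.829 for the gap to the nearest value over the range. Of 28 groups checked 0 exceeded it, where chance flags about 1 in 20.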

How the results depend on the processing

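No member passed an adjusted p of 0.05 by limma in the fit reported or in any of 19 alternatives. Over all genes 0 passed as reported, 1 without a filter, 1 with the GC and length correction combined with the replicate block, and 0 to 1 with a library left out (1 without control replicate 1). The count of members at an unadjusted p under 0.05, reported as 5, was 3 after quantile normalization, 3 with the GC and length correction combined with the replicate block, and 3 to 6 with a library left out; the cause was not tested. The count of tested members whose groups did not overlap, reported as 3, was 2 after quantile normalization and 3 to 4 with a library left out. The log2 fold change of Egln2 reversed to 0.040 after the GC and length correction, with or without the replicate block. After that correction the median over the tested members was -0.13. The ratio of Egln3 to Egln1, reported as 0.08, reversed to -0.22 with a pseudocount of 0.1. The other members kept their sign in each setting run. Without a filter, limma-voom, added after the data were seen, gave -0.64 for Egln3 (adjusted p = 0.630), where log2(FPKM + 1) gave -0.11. Epas1 could not be fitted by limma-voom, since its fragments were not recovered. The longer forms ACGTGC and GCGTGC of the core were in 7 of 9 member windows, where 16.3% of all windows held one.

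Same-numbered samples of the 2 groups correlated at -0.10 to 0.15 in their deviations, so the numbers were not taken as pairs. With the replicate block 0 genes passed, 2776 had an unadjusted p under 0.05, and 5 members did. The ratios had exact sign-flip adjusted p of 0.25 to 0.625. On 4 pairs that test cannot fall under 0.05 at any difference, so it could not decide. With 12 to 31 fragments a library for Ankrd37, and 4 to 18 for Egln3, depth limits both.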

Other observations

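For the tested members with the largest standard deviation over the 8 libraries, the genes with the most similar profile were listed, measured by the root mean square difference in log2(FPKM + 1) after each gene was centred on its mean. Closest to Epas1 were AU021092 (0.13), Npr2 (0.13), the natriuretic peptide receptor of granulosa cells, and Slc7a5 (0.15), an amino acid transporter, where the median over all tested genes was 0.39. Npr2 had 52.6, 49.2, 75.1 and 81.0 FPKM in melatonin replicates 1 to 4, against 86.6, 83.9, 85.8 and 75.9 FPKM in control replicates 1 to 4, and like Epas1 its melatonin replicate 4 reached the control range. Closest to Hif1a were Mfap2 (0.07), a microfibril-associated glycoprotein gene, Crip1 (0.08) and Paqr9 (0.08), where the median was 0.27. Mfap2 had 147, 157, 177 and 150.1 FPKM in melatonin replicates 1 to 4, against 235, 164, 212 and 166 FPKM in control replicates 1 to 4. These likenesses rest on 8 libraries and are descriptions without a test.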
